A study of Arabidopsis thaliana with 9 samples.

Results

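Aquaporins are membrane channels for water and small uncharged solutes, and the 35 genes of this family in Arabidopsis thaliana were followed in roots in which the zinc finger repressor STZ was switched on. The members were taken by gene ID from the 5 named groups of the family, out of 32833 genes listed. They are 5 PIP1, 8 PIP2, 10 TIP, 9 NIP and 3 SIP genes. No member was chosen by its values, but the family was chosen with earlier results of these data known. RNA came from roots of seedlings aged 4 to 5 days that carry p35S::XVE>>pLexA::STZ in Col-0. All libraries are of 1 transgenic line, STZ-OE #2, in which the constitutive 35S promoter drives the estradiol-activated factor XVE, so no wild-type plants treated with estradiol are part of the comparison. There were 3 groups of 3 libraries, which the labels call biological replicates. Mock roots were kept with ethanol for 24 h, and the other groups with estradiol at 20 µM, one for 6 h and one for 24 h. The 6 h group was thus compared with mock plants of another treatment length. The sources differ on whether the apical portion that was taken was the larger or an equal portion of the root. Separate sowings are not stated, and the spread that p-values rest on may be in part technical.

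Plasma membrane intrinsic proteins (PIPs) carry water across the cell surface and set much of the hydraulic conductivity of roots, and PIP1 proteins reach the plasma membrane in tetramers with PIP2 proteins. Tonoplast intrinsic proteins (TIPs) do the same at the vacuole, some also passing ammonia. Nodulin 26-like proteins (NIPs) carry boric acid, arsenite, lactic acid and other small solutes, and small basic intrinsic proteins (SIPs) sit in the endoplasmic reticulum.

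A pair of loops that each carry the residues asparagine, proline and alanine meet in the pore of most aquaporins. The coding bases of the first loop are shown for members whose RNA levels changed, because they show how the groups differ where the pore is formed. Each is 36 bases of TAIR10.1, 5′ to 3′ on the coding strand, with the 3 motif codons in capitals. The stretches lie at chr3:22733981-22734280 (plus strand), chr2:15614338-15614494 (minus), chr5:19249200-19249235 (minus), chr4:10366659-10366694 (plus), chr4:6432357-6432392 (minus), chr5:6056174-6056209 (minus) and chr3:21079420-21079455 (minus), and the first and second of these are joined across an intron.
PIP1;1: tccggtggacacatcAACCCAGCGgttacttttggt
PIP2;2: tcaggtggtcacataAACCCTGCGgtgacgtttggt
TIP2;3: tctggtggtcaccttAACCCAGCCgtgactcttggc
NIP1;2: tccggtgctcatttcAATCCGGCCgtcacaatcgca
NIP5;1: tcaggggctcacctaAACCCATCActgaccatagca
SIP1;2: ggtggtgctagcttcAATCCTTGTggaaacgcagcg
SIP2;1: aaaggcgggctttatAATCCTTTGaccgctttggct
The third motif codon encodes alanine in PIP1;1, PIP2;2, TIP2;3 and NIP1;2, serine in the boric acid channel NIP5;1, cysteine in SIP1;2 and leucine in SIP2;1.

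The libraries held 24375822 to 31299634 counted exon reads, of which 98.5% to 98.6% were unique, and 20272 genes were tested. STZ (AT1G27730) had 510, 675 and 947 reads in mock, 34299, 27555 and 35537 at 6 h and 337538, 284588 and 246924 at 24 h, as the labels say. Root identity and endodermal barrier genes were present in all libraries, while summed seed markers stayed at 0.201 to 0.663 RPKM and pollen markers at 1.57 to 2.15 RPKM. Photosynthesis genes, markers of shoot tissue, summed to 182 ± 6.9 RPKM in mock, 52 ± 1.01 at 6 h and 45.6 ± 2.2 at 24 h, with 11 of 12 tested lower at both times. In the same order, the dividing-cell markers summed to 106 ± 6.08, 92.8 ± 11.7 and 69.3 ± 10.2 RPKM, the root identity genes to 597 ± 19.5, 845 ± 77.6 and 778 ± 99.99, the endodermal barrier genes to 940.1 ± 29.7, 903 ± 172 and 824 ± 174, and the root hair genes to 367 ± 46.4, 625 ± 137 and 346 ± 58.5. Of all markers, RBCS3B (shoot), SESA3 and CRC (seed) and PPME1, DUO1, ANX2 and RBOHJ (pollen) had 0 reads in every library. The part of these cell types in the aquaporin results was not tested, and in bulk roots fewer cells of a type and less RNA per cell cannot be told apart.

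Levels are given as RPKM, which are reads scaled to exon length and to the mapped reads of the library, and changes as log2 values ± SE from edgeR. A gene was called where its Benjamini-Hochberg adjusted p over all tested genes was under 0.01 and the change at least 1.5-fold, the study's thresholds. Of the 35 members, 29 had enough reads to be tested. At 6 h against mock 11 were called (beside 13.1% of all genes), of which 8 were lower and 3 higher, beside 7.71% of all genes lower and 5.43% higher. At 24 h against mock 19 were called (beside 35.6%), of which 17 were lower and 2 higher, beside 18.0% and 17.6% of all genes. Between 24 h and 6 h 6 were called (beside 24.6%), of which 5 were lower and 1 higher, beside 10.5% and 14.1%. The median log2 change of the 29 was -0.46 at 6 h and -0.71 at 24 h, and that of all tested genes 0.00 and -0.01. Groups without overlap between libraries were common. At 6 h 17 of the 29 lay wholly below mock and 5 wholly above, beside 31.2% and 23.8% of all tested genes. At 24 h these were 19 and 3, beside 38.7% and 31.5%. Both comparisons with mock rest on the same 3 mock libraries. PIP1;2, PIP1;3, PIP1;4, PIP1;5, PIP2;1, PIP2;2, TIP2;2 and TIP2;3 were lower than mock at both times, and 8 members (PIP2;4, PIP2;8, TIP1;2, TIP4;1, NIP1;1, NIP3;1, NIP4;2 and SIP1;1) were called in no comparison.

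**Figure D1:**
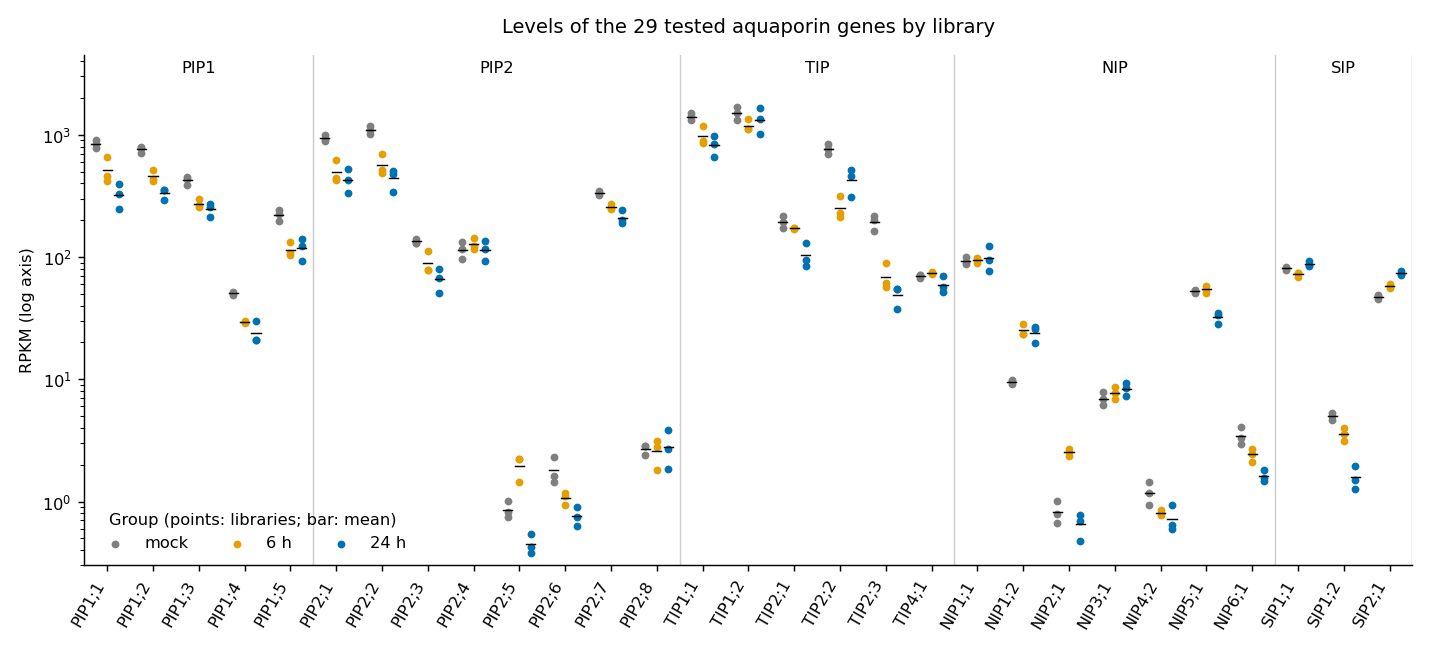
RPKM on a log axis for the 29 tested aquaporin genes, ordered by subfamily, with a point per library and a bar at the mean of each group of 3 (grey mock, orange 6 h, blue 24 h). The PIP1 genes sit lower in both estradiol groups, PIP1;1 falling from a mean of 840.0 to 321 RPKM at 24 h, and NIP1;2 sits higher in both.

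In mock roots the family spanned more than 3 orders of magnitude. The tonoplast channels TIP1;2 (1500.4 ± 180.1 RPKM, SD, n = 3) and TIP1;1 (1407 ± 91.2) were highest, and their libraries overlapped. Below them came PIP2;2 (1099 ± 82.5), whose lowest library was above the highest of PIP2;1 (941 ± 52.1). PIP1;1, TIP2;2 and PIP1;2 followed at 840.0, 767 and 757 RPKM, each overlapping its neighbour in the order. These 7 genes made up 78.2% of the summed aquaporin RPKM in mock. PIP1;3, PIP2;7 and PIP1;5 had 424, 334 and 221 RPKM, and the highest NIP and SIP genes were NIP1;1 (92.7 ± 5.75) and SIP1;1 (81.1 ± 2.21). PIP2;6, PIP2;5, NIP2;1 and NIP4;2 lay under 2 RPKM.

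All 5 PIP1 genes were lower at 24 h than in mock, and 4 of the 5 had already been called lower at 6 h. Of all tested genes 18.0% were lower at 24 h and 7.71% at 6 h. PIP1;1 (AT3G61430), the most abundant PIP1 transcript, had 774, 846 and 900.4 RPKM in the mock libraries, 419, 659.5 and 456 at 6 h and 245, 393 and 326 at 24 h. Every estradiol library lay below every mock library. The log2 change was -0.69 ± 0.20 at 6 h, which missed the threshold (adjusted p = 0.0184), and -1.30 ± 0.20 at 24 h (adjusted p = 0.00012). At 6 h replicate 2 was higher than the other 2 libraries, and without it the 6 h change was -0.92 and called (adjusted p = 0.00272). Leaving out 24 h replicate 1 or 24 h replicate 2 also brought the 6 h call, with adjusted p of 0.00967 and 0.0073. Dropping replicate 2 or 3 of mock, or replicate 1 or 3 of 6 h, moved it further from a call. The adjusted p values were then 0.0522, 0.0622, 0.0779 and 0.0727. Between 24 h and 6 h PIP1;1 differed by -0.62 ± 0.20, with an adjusted p of 0.0196 and, with the replicate number as a block, 0.00083, which made it a call. Without 24 h replicate 2 that difference was -0.83 (adjusted p = 0.00369).

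PIP1;2 (AT2G45960), a PIP1 channel known from mutants to add to root and shoot hydraulic conductivity, had 704, 772 and 795 RPKM in the mock libraries, 419.9, 517 and 431 at 6 h and 295, 352 and 350.3 at 24 h. The 3 groups did not overlap. It fell 1.63-fold at 6 h (-0.70 ± 0.12) and 2.16-fold at 24 h (-1.11 ± 0.12, adjusted p = 4.93e-06). PIP1;4 (AT4G00430), which carries water and has been linked to hydrogen peroxide and carbon dioxide, had the tightest mock and 6 h libraries of the group, 49.2 to 51.8 and 28.9 to 30.2 RPKM. Its change was -0.75 ± 0.10 at 6 h and -1.01 ± 0.10 at 24 h. PIP1;5 (AT4G23400) went from 221 ± 23.9 to 115 ± 15 and 119 ± 24.5 RPKM, a fall of similar size at both times (-0.92 ± 0.15 and -0.82 ± 0.15). PIP1;3 (AT1G01620), the smallest 24 h change of the 5, had -0.61 ± 0.11 at 6 h and -0.71 ± 0.11 at 24 h, its level going from 424 ± 31.2 to 273 ± 20.8 and 246 ± 29.7 RPKM. Its 6 h change is close to 1.5-fold, and it dropped under that fold without mock replicate 2 (-0.58), mock replicate 3 (-0.56) or 6 h replicate 1 (-0.55).

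The PIP2 genes split. PIP2;1, PIP2;2, PIP2;3, PIP2;6 and PIP2;7 were lower at 24 h, PIP2;4, PIP2;5 and PIP2;8 were not called then, and PIP2;5 was higher at 6 h. PIP2;2 (AT2G37170), one of the main water channels of the root, had 1016, 1102 and 1181 RPKM in the mock libraries, 489, 699.6 and 512 at 6 h and 338, 509 and 475 at 24 h. No estradiol library reached the lowest mock library. The fall was 1.9-fold at 6 h (-0.93 ± 0.18, adjusted p = 0.00168) and 2.36-fold at 24 h (-1.24 ± 0.18, adjusted p = 6.38e-05). Without 6 h replicate 3 the 6 h change was -0.85 with an adjusted p of 0.0102, no longer a call.

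PIP2;1 (AT3G53420), which also passes hydrogen peroxide and acts in lateral root emergence, had 896, 928 and 998 RPKM in the mock libraries, 427, 617 and 440.5 at 6 h and 336, 525 and 429 at 24 h. As with PIP1;1, replicate 2 was the highest library of both estradiol groups. The change was -0.90 ± 0.18 at 6 h (adjusted p = 0.00261) and -1.05 ± 0.18 at 24 h (adjusted p = 0.000326). Dropping replicate 2 or 3 of mock, or replicate 1 or 3 of 6 h, ended the 6 h call, with adjusted p of 0.0101, 0.0119, 0.0148 and 0.015, while the 24 h call was not lost under any alternative run.

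PIP2;2 and PIP2;3 (AT2G37180) lie next to each other on chromosome 2 in opposite orientation, 2612 bases apart, and their coding sequences are 94.8% identical over 858 aligned bases, the highest value among pairs within a subfamily. The longest coding run with no difference is 242 bases. The 90 coding bases in which they differ most are shown because they are where a read tells the genes apart best. They lie at chr2:15614179-15614268 (minus strand) and chr2:15618302-15618391 (plus strand) of TAIR10.1, each in 1 exon, with the 12 differing bases in capitals.
PIP2;2: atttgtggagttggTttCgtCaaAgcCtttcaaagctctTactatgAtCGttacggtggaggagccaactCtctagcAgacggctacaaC
PIP2;3: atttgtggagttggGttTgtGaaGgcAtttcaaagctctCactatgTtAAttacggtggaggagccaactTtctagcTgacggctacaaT
For both genes 94.6% of the counted reads were unique. PIP2;3 went from 134 ± 5.81 to 90.05 ± 19.3 and 66.3 ± 14.8 RPKM, a change of -0.54 ± 0.18 at 6 h, not called (adjusted p = 0.0304), and -0.93 ± 0.18 at 24 h. Without 6 h replicate 2 the 6 h change was -0.74 and called (adjusted p = 0.00485). Without 6 h replicate 1 or 6 h replicate 3 it was -0.45 (adjusted p = 0.115 for each). With unique reads alone, the 24 h changes were -1.25 for PIP2;2 and -0.95 for PIP2;3.

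PIP2;7 (AT4G35100), an abundant plasma membrane water channel, had 321 to 348 RPKM in mock, 249 to 269.8 at 6 h and 190.0 to 241 at 24 h. The groups were apart, but the change was small, -0.35 ± 0.09 at 6 h, under the fold threshold, and -0.60 ± 0.09 at 24 h, just over it. It fell back under 1.5-fold when replicate 2 or 3 of mock, replicate 2 of 6 h, or replicate 1 or 2 of 24 h was dropped (-0.57, -0.56, -0.57, -0.55 and -0.56). PIP2;6 (AT2G39010), a gene of low level in roots, had 2.31, 1.63 and 1.46 RPKM in mock and 0.631, 0.746 and 0.905 at 24 h, a change of -1.16 ± 0.21.

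PIP2;4 (AT5G60660), a channel of root epidermal cells that also carries hydrogen peroxide, was called in no comparison. It had 96.4, 116 and 132 RPKM in the mock libraries, 117, 144 and 122 at 6 h and 92.3, 116 and 136 at 24 h, and the 3 groups overlapped. The changes were 0.18 ± 0.15 and 0.07 ± 0.15 (adjusted p = 0.377 and 0.685). PIP2;8 (AT2G16850) was close to 0 change at both times, with 2.7 ± 0.237, 2.57 ± 0.691 and 2.8 ± 1.01 RPKM in mock, at 6 h and at 24 h.

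PIP2;5 (AT3G54820), which in leaves is known as a drought-induced PIP, moved in both directions at a very low level. It had 0.753, 1.01 and 0.822 RPKM in the mock libraries, 2.22, 2.22 and 1.44 at 6 h and 0.425, 0.546 and 0.376 at 24 h. All 3 libraries at 6 h were above all mock libraries, and all 3 at 24 h were below them. It rose 2.31-fold at 6 h (1.21 ± 0.22, adjusted p = 0.00135) and was 4.21-fold lower at 24 h than at 6 h (-2.07 ± 0.25, adjusted p = 2.62e-05). The 24 h value against mock, -0.86 ± 0.27, missed the threshold (adjusted p = 0.014) and passed it without 6 h replicate 3 (adjusted p = 0.00687) or 24 h replicate 2 (adjusted p = 0.00985). Without mock replicate 2 or 24 h replicate 3 it was further off (adjusted p = 0.0609 and 0.0545). These values rest on 139, 299 and 66 reads summed over the 3 libraries of each group.

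**Figure D2:**
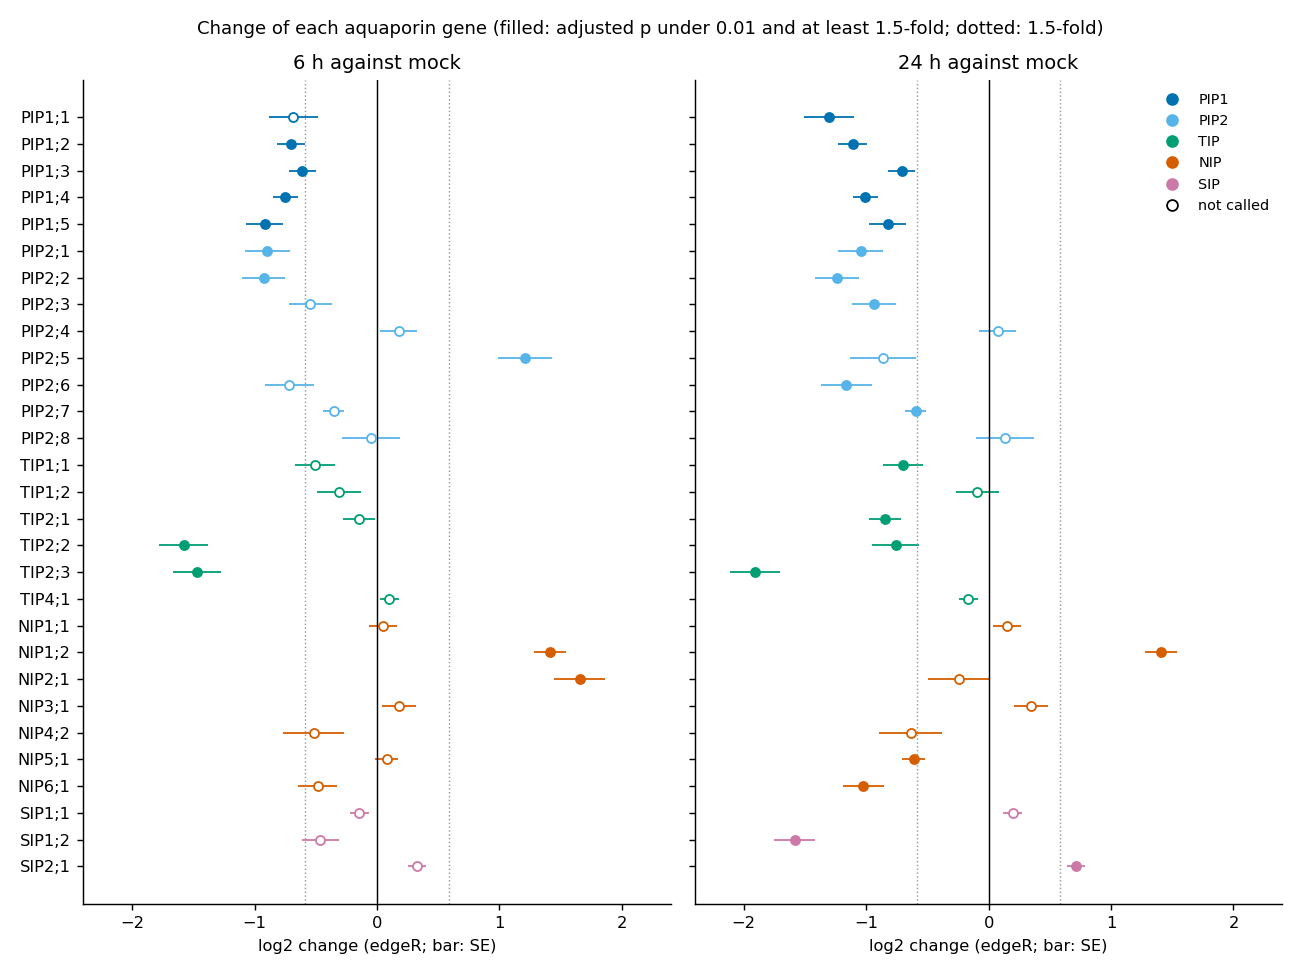
The log2 change of each tested aquaporin gene at 6 h (left) and 24 h (right) against mock, with the SE as a bar, filled where called and coloured by subfamily, and dotted lines at 1.5-fold. PIP1 points lie left of 0 in both panels, TIP2;2 and TIP2;3 are the furthest left at 6 h (-1.58 and -1.47), and NIP1;2 lies right of 0 in both.

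Among the vacuolar channels, the TIP2 genes had the largest falls and the most abundant gene, TIP1;2, was not called. Of 10 TIP genes 6 were tested, 2 of which were lower at 6 h and 4 at 24 h, beside 7.71% and 18.0% of all genes. TIP2;3 (AT5G47450), a root tonoplast channel that passes water and ammonia, had 163, 202 and 217 RPKM in the mock libraries, 56.6, 88.8 and 60.8 at 6 h and 37.3, 55.1 and 54.7 at 24 h. It was 2.77-fold lower at 6 h (-1.47 ± 0.20) and 3.75-fold lower at 24 h (-1.91 ± 0.20, adjusted p = 5.09e-06), the largest fall of a tested member against mock.

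TIP2;2 (AT4G17340), its closest relative in sequence among the tested TIP2 genes and of higher level, fell early and was partly back at 24 h. It had 700.0, 764 and 837 RPKM in the mock libraries, 213, 313 and 229 at 6 h and 309.7, 515 and 459 at 24 h. Only 24 h replicate 1 lay within the range of the 6 h libraries. The change was -1.58 ± 0.20 at 6 h (adjusted p = 9.76e-05), -0.76 ± 0.20 at 24 h (adjusted p = 0.00448) and 0.82 ± 0.20 between 24 h and 6 h (adjusted p = 0.00372), which makes it the 1 member called higher at 24 h than at 6 h. Dropping replicate 2 or 3 of mock, or replicate 1 or 3 of 24 h, ended the 24 h call (adjusted p = 0.0158, 0.0187, 0.0141 and 0.0131). The call between 24 h and 6 h did not survive the loss of replicate 1 or 3 of 6 h, or of replicate 2 or 3 of 24 h (adjusted p = 0.0194, 0.0191, 0.0153 and 0.0118), and the 6 h fall was not lost in any alternative run.

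TIP2;1 (AT3G16240), the delta-TIP that acts in lateral root emergence and also passes ammonia, had 172, 192 and 218 RPKM in the mock libraries, 173, 174 and 169 at 6 h and 84.3, 94.4 and 129.8 at 24 h. It was not called at 6 h (-0.15 ± 0.13, adjusted p = 0.398) and was lower at 24 h, both against mock (-0.84 ± 0.13) and against 6 h (-0.70 ± 0.13). The last of these fell short of 1.5-fold without 24 h replicate 1 (-0.56). The 3 TIP2 genes thus had 3 different time patterns.

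TIP1;1 (AT2G36830), the gamma-TIP, had 1315 to 1497 RPKM in mock, 862 to 1171 at 6 h and 655 to 969.6 at 24 h, with changes of -0.51 ± 0.17 (adjusted p = 0.0311) and -0.70 ± 0.17 (adjusted p = 0.00269). Its 6 h change was called without 6 h replicate 2 (-0.67, adjusted p = 0.00742). Without 6 h replicate 1 or 6 h replicate 3 that change had an adjusted p of 0.113 and 0.115. Its 24 h call was not made when replicate 2 or 3 of mock, or replicate 1 or 3 of 24 h, was dropped (adjusted p = 0.0108, 0.0119, 0.0112 and 0.0108). TIP1;2 (AT3G26520) had 1319, 1503 and 1679 RPKM in the mock libraries, 1105, 1347 and 1113 at 6 h and 1007, 1641 and 1336 at 24 h, and the 24 h libraries ran from below the lowest to near the highest mock library. Its change was -0.31 ± 0.18 at 6 h and -0.09 ± 0.18 at 24 h. TIP4;1 (AT2G25810), a root tonoplast channel, stayed at 70.03 ± 1.96, 73.8 ± 1.1 and 59.4 ± 9.39 RPKM in mock, at 6 h and at 24 h.

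The NIP genes, channels for solutes other than water, included both rises and falls. Of the 7 tested, 2 were higher at 6 h, and 1 was higher and 2 were lower at 24 h. Of all tested genes, 5.43% were higher at 6 h, and 17.6% were higher and 18.0% lower at 24 h. NIP1;2 (AT4G18910), a root plasma membrane channel known for the uptake of aluminium malate and of arsenite, had 9.1, 9.95 and 9.71 RPKM in the mock libraries, 28.4, 23.4 and 23.7 at 6 h and 25.9, 26.6 and 19.6 at 24 h. All 6 estradiol libraries lay above all mock libraries. It was 2.66-fold higher at 6 h (1.41 ± 0.13, adjusted p = 1.03e-05) and 2.65-fold higher at 24 h (1.41 ± 0.13, adjusted p = 1.82e-06), and it was the 1 member higher at both times. Its closest relative NIP1;1 (AT4G19030), also an arsenite channel, with 85.1% identical coding bases, had 92.7 ± 5.75, 94.3 ± 4.69 and 98 ± 23 RPKM and changed by 0.05 ± 0.11 and 0.15 ± 0.11.

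NIP2;1 (AT2G34390), a lactic acid channel that is induced when roots lack oxygen, was high at 6 h only. It had 1.01, 0.665 and 0.787 RPKM in the mock libraries, 2.36, 2.71 and 2.53 at 6 h and 0.777, 0.697 and 0.48 at 24 h. It rose 3.15-fold at 6 h (1.65 ± 0.21, adjusted p = 0.0001002), was 3.73-fold lower at 24 h than at 6 h (-1.90 ± 0.22, adjusted p = 1.93e-05) and overlapped mock at 24 h (-0.24 ± 0.25). NIP2;1 and PIP2;5 were the members with this time course, higher at 6 h and then called lower at 24 h than at 6 h.

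NIP5;1 (AT4G10380), the boric acid importer of the root surface, had 50.8, 53.4 and 52.8 RPKM in the mock libraries, 53.8, 58.4 and 50.7 at 6 h and 28.6, 34.9 and 33.8 at 24 h. The mock and 6 h libraries overlapped, and all 24 h libraries were lower. The change was 0.08 ± 0.10 at 6 h, -0.61 ± 0.10 at 24 h (adjusted p = 0.00013) and -0.69 ± 0.10 between 24 h and 6 h. The 24 h value is near the fold threshold and was under it without mock replicate 2 (-0.57) or 24 h replicate 1 (-0.52). NIP6;1 (AT1G80760), the boric acid channel of shoot nodes, had 3.44 ± 0.55, 2.43 ± 0.299 and 1.61 ± 0.183 RPKM in mock, at 6 h and at 24 h, and was lower at 24 h (-1.02 ± 0.17). NIP3;1 (AT1G31885) and the pollen gene NIP4;2 (AT5G37820) were not called, with 24 h changes of 0.35 ± 0.14 and -0.64 ± 0.26.

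The 3 SIP genes each behaved differently. SIP1;2 (AT5G18290) had 4.64, 5.33 and 4.97 RPKM in the mock libraries, 3.54, 3.98 and 3.14 at 6 h and 1.28, 1.51 and 1.96 at 24 h, with no overlap between groups. It was 2.998-fold lower than mock at 24 h (-1.58 ± 0.17, adjusted p = 4.83e-06) and 2.18-fold lower than at 6 h (-1.12 ± 0.17), while its 6 h change of -0.46 ± 0.15 was not called (adjusted p = 0.0305). SIP2;1 (AT3G56950) had 47.7, 45 and 48.9 RPKM in mock, 56, 58.1 and 60.5 at 6 h and 72.4, 76.8 and 71.1 at 24 h. Its groups were also apart, and it was higher at 24 h (0.72 ± 0.07, adjusted p = 4.13e-06) with a smaller 6 h value of 0.33 ± 0.07. SIP1;1 (AT3G04090) had 81.1 ± 2.21, 72.1 ± 3.15 and 88 ± 4.56 RPKM and was not called.

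Some of these genes overlap a gene on the other strand in TAIR10.1, and how the counting used strand is not known, so reads from the shared bases cannot be told apart. SIP1;2 shares 444 of its 3341 bases with AT5G18300, which was itself at 1.83 RPKM in mock and 0.371 at 24 h (-2.16). SIP2;1 shares 147 bases with AT3G56940, which moved the other way (-1.08 at 24 h). NIP2;1 shares 30 bases with AT2G34380, which stayed at 5.23 to 5.82 RPKM, and 1432 of its 1502 bases with a long noncoding RNA to which the files assign no exon reads. TIP2;1 shares 120 bases with AT3G16250, at no more than 0.0878 RPKM in any group, and NIP6;1 shares 26 bases with AT1G80750 (35 to 45.3 RPKM).

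**Figure D3:**
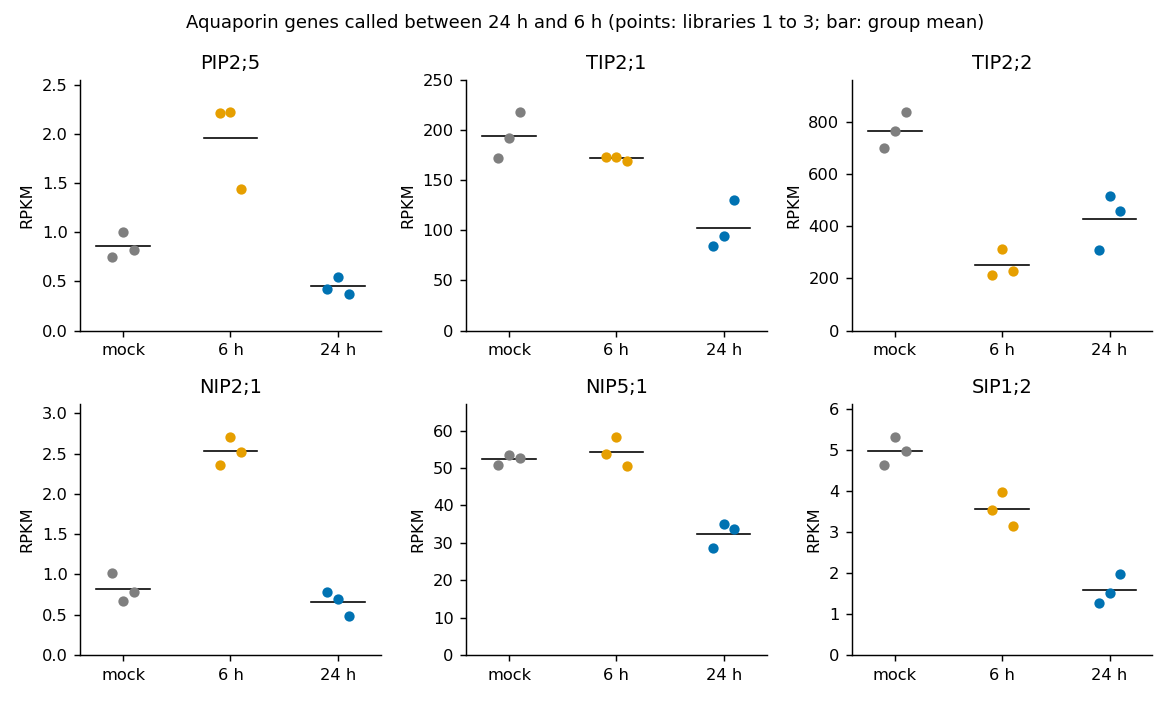
RPKM from 0 in each library for the 6 members called between 24 h and 6 h, with a bar at the mean of each group of 3. PIP2;5 and NIP2;1 are highest at 6 h (1.96 and 2.53 RPKM), TIP2;2 is lowest at 6 h (252), and TIP2;1, NIP5;1 and SIP1;2 are lowest at 24 h.

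The remaining 6 members were too low to test. NIP4;1, a pollen gene, had 0 reads in all 9 libraries, and 3 reads would have been 0.0783 to 0.0999 RPKM, depending on the library. TIP5;1 and TIP1;3 (pollen), TIP3;1 and TIP3;2 (seed) and NIP7;1 (anther), some of which overlap neighbours too, were at no more than 0.204 RPKM in any library. The highest of these values were those of TIP1;3 at 24 h, 0.15, 0.142 and 0.204 RPKM, against 0.0662, 0.0303 and 0.0557 in mock. They come from a handful of reads in each library, and no change is read from them.

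Summed over members, the PIP1, PIP2 and TIP levels were at most 67.4% of mock in both estradiol groups, and the NIP and SIP levels at least 99.3%. The sums were not tested. PIP1 genes summed to 2293 ± 166 RPKM in mock, 1385 ± 218 at 6 h and 1042 ± 153 at 24 h, which is 60.4% and 45.4% of mock. PIP2 genes summed to 2629 ± 170.0, 1542 ± 265 and 1266 ± 215 RPKM (58.7% and 48.2% of mock). TIP genes summed to 4133 ± 389, 2727 ± 380.5 and 2786 ± 594 RPKM (66.0% and 67.4%), so that the mean 24 h sum was not below the 6 h sum. With each library left out, the 24 h TIP sum was 92.3% to 113.8% of the 6 h sum. For the PIP1, PIP2 and TIP sums, each estradiol library was below each mock library.

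NIP genes summed to 167 ± 7.36, 187 ± 2.87 and 166 ± 19 RPKM, and SIP genes to 133 ± 3.44, 134 ± 2.11 and 163 ± 7.43 RPKM. The SIP sum was 122% of mock at 24 h, with all 3 libraries above mock. The whole family took 1.7% of the summed RPKM of all genes in mock, 1.09% at 6 h and 0.973% at 24 h. Within the family the TIP share went from 44.1% to 45.7% and 51.2% and the PIP1 share from 24.5% to 23.2% and 19.3%. The median log2 change at 6 h was -0.70 for the 5 PIP1 genes, -0.45 for 8 PIP2, -0.41 for 6 TIP, 0.08 for 7 NIP and -0.14 for 3 SIP genes. At 24 h it was -1.01, -0.90, -0.73, -0.24 and 0.20 in the same order. Differences between subfamilies were not tested, and a few abundant genes set each sum.

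**Figure D4:**
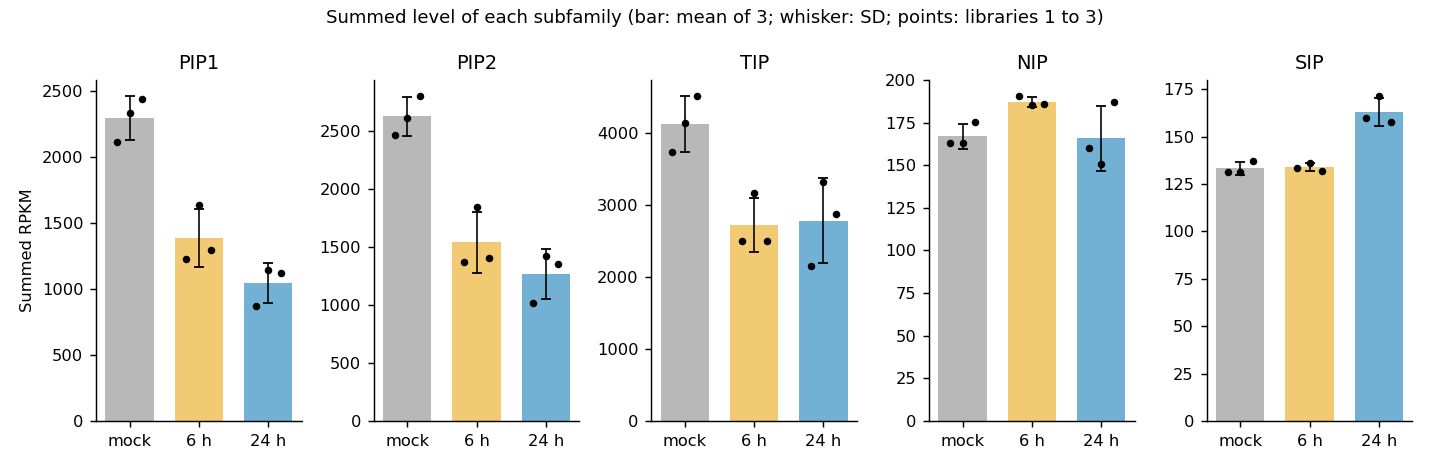
Summed RPKM of each subfamily from 0, each panel with its own scale, as the mean of 3 libraries (bar), the SD (whisker) and the libraries (points). PIP1 falls from 2293 to 1042, TIP is near the same height at 6 h and 24 h, and SIP is highest at 24 h.

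Libraries of 1 group differed in aquaporin level as a set. Of the 22 members at a mean of 5 RPKM or more, 6 h replicate 2 was the highest of its group for 17, against 35.1% of all genes at that level, and 24 h replicate 1 was the lowest of its group for 16, against 25.3% of all genes. In mock, replicate 3 was highest for 19 of the 22, against 32.2% of all genes. Replicate 2 of both estradiol groups also stood apart in cell type markers. For replicates 1, 2 and 3 the endodermal barrier markers summed to 805, 1101 and 804 RPKM at 6 h and 730.3, 1024 and 717 at 24 h. The dividing-cell markers summed to 102, 79.6 and 97.2 RPKM at 6 h and 76.1, 57.5 and 74.2 at 24 h. STZ took 0.129%, 0.0989% and 0.128% of the reads at 6 h. The part of these differences in the aquaporin values was not tested. Without 6 h replicate 2, 11 members were lower and 3 higher at 6 h, and without 24 h replicate 2, 17 were lower and 2 higher at 24 h, with PIP2;5 in and PIP2;7 out.

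**Figure D5:**
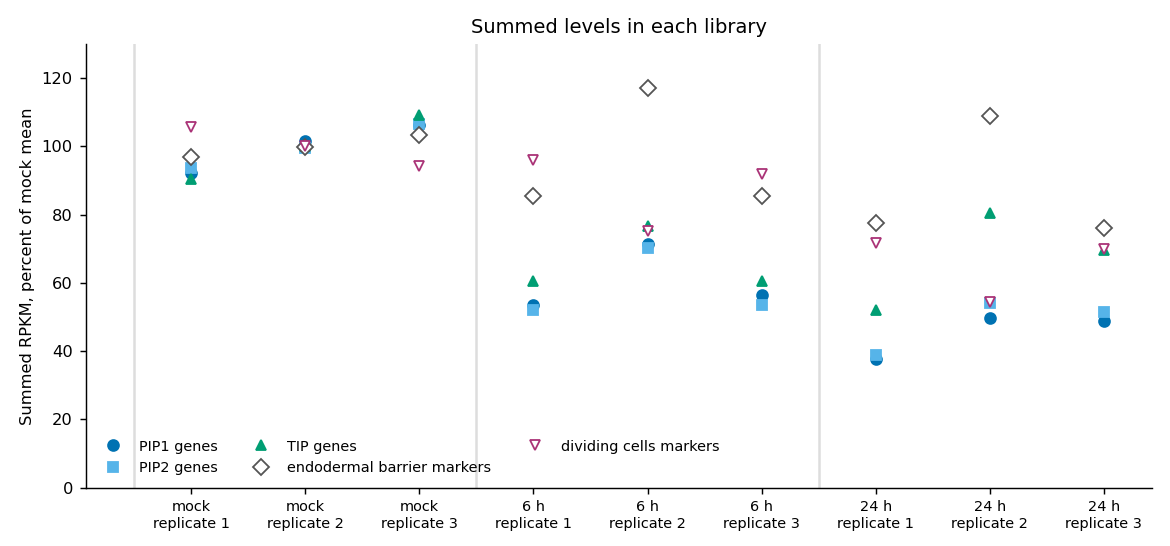
Summed RPKM in each library as a percent of the mock mean, for PIP1, PIP2 and TIP genes (filled) and for endodermal barrier and dividing-cell markers (open). Replicate 2 is the highest of the 6 h libraries for the 3 aquaporin groups and for the endodermal markers and the lowest for the dividing-cell markers, and 24 h replicate 1 is the lowest 24 h library for the 3 aquaporin groups.

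Other genes that share membranes or solutes with aquaporins are given from 6 lists, by counts of called genes. Of all tested genes, 13.1% were called at 6 h against mock, 5.43% higher and 7.71% lower. At 24 h against mock these shares were 35.6%, 17.6% and 18.0%. Whether any list departs from these shares was not tested. Of 10 tested plasma membrane proton pump genes, 1 was higher and 1 lower at 6 h, and 1 higher and 2 lower at 24 h. AHA2, the main pump of the root surface, went from 809 ± 13.4 RPKM in mock to 693 ± 19.3 at 6 h and 221 ± 37.9 at 24 h (-1.80 ± 0.11 at 24 h). Of 13 tonoplast pump and transporter genes, 3 were lower at 6 h and 3 at 24 h. The sugar transporter TMT2 fell by 1.83 ± 0.10 at 24 h and the calcium exchanger CAX1 by 0.64 ± 0.07.

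Of 5 tested boron exporter genes, partners of NIP5;1 in boron transport, 1 was lower at 6 h and 2 at 24 h. BOR2 went from 52.9 ± 2.2 to 40.5 ± 2.55 and 16.7 ± 2.23 RPKM (-1.59 ± 0.08 at 24 h), and BOR1, which loads the xylem, changed by -0.96 ± 0.12. Of 4 ammonium transporter genes, 2 were higher at 6 h, and 2 were higher and 1 lower at 24 h. AMT2;1 rose by 1.05 ± 0.09 and 1.95 ± 0.09, AMT1;1 by 0.70 ± 0.10 and 1.21 ± 0.10, and AMT1;3 changed by -1.53 ± 0.11 at 24 h.

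Low oxygen genes were examined because NIP2;1 belongs to that response. Of 10 tested, 2 were higher at 6 h, and 2 were higher and 3 lower at 24 h. ADH1, alcohol dehydrogenase, went from 0.768 ± 0.0847 RPKM in mock to 6.03 ± 1.51 at 6 h and 0.595 ± 0.246 at 24 h (2.98 ± 0.24 at 6 h), and the hemoglobin gene HB1 had 3.85 ± 0.185, 6.04 ± 0.731 and 1.5 ± 0.0698 RPKM. Both were highest at 6 h, as was NIP2;1, while the pyruvate decarboxylase genes PDC1 and PDC2 were lower at 24 h (-1.62 ± 0.13 and -1.58 ± 0.09). PCO1, of the same list, was highest at 24 h instead. It had 0.979 ± 0.239, 1.55 ± 0.0291 and 4.36 ± 0.694 RPKM in mock, at 6 h and at 24 h (2.22 ± 0.20 at 24 h). The median log2 change of the 10 tested genes was 0.12 at 6 h and -0.03 at 24 h. Of 10 genes for the trafficking and control of aquaporins, 4 were higher and 2 lower at 24 h. These include OST1, a kinase that phosphorylates PIP2;1 (-1.53 ± 0.10 at 24 h), and the ubiquitin ligase genes RMA2 and RMA3 of a family known to act in PIP2;1 degradation (1.21 ± 0.12 and 0.85 ± 0.10).

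The 250 bases before each annotated gene start in TAIR10.1 were searched for tandem cores of the kind bound by STZ-type zinc fingers in vitro: AGT or ACT, then 3 or 4 bases of any kind, then AGT or ACT. This set reads the same on both strands, and matches may overlap. At least 1 match was found in 15 of 35 aquaporin windows (42.9%), beside 36.9% of 27443 protein-coding genes. By subfamily these were 4 of 5 PIP1, 3 of 8 PIP2, 4 of 10 TIP, 2 of 9 NIP and 2 of 3 SIP windows. The abscisic acid response core ACGTG, on either strand, was found in 4 of 35 windows (11.4%), beside 22.9% of all, and in 0 of the 13 PIP windows. A match is a description of these letters, and whether STZ binds there was not measured.
Windows are shown for PIP1;3, the PIP1 gene with the most matches (3), for TIP2;3, the largest fall against mock at 24 h, with 2, and for NIP1;2, the gene higher at both times, with 0, with matched cores in capitals. They lie at chr1:227544-227793 (minus strand), chr5:19249623-19249872 (minus) and chr4:10365794-10366043 (plus) of TAIR10.1 and end at the base before the gene start.
PIP1;3: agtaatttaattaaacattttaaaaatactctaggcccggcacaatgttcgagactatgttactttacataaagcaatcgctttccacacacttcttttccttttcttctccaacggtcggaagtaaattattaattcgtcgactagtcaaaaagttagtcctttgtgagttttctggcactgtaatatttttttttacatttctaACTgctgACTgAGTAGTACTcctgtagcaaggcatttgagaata
TIP2;3: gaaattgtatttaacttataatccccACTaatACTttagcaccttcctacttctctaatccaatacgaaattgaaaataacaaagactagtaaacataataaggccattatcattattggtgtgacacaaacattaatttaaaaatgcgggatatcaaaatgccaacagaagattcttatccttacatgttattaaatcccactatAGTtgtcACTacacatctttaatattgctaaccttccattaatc
NIP1;2: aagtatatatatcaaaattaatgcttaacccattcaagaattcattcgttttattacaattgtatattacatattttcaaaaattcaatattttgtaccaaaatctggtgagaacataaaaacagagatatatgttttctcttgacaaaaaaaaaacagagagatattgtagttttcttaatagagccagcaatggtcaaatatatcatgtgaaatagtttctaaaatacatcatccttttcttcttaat
PIP1;1, PIP2;2, PIP2;5, TIP2;2 and NIP2;1, whose levels changed too, had 0 matches in their windows. The most matches of any member, 4, were in the window of NIP4;2, which was called in no comparison. SIP2;1, higher at 24 h, had 1.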

How the data were processed

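Stranded poly(A) libraries of root RNA were sequenced as read pairs. The authors trimmed reads by quality and mapped them in CLC Genomics Workbench to the TAIR10 genome with stated penalties and minimum length and similarity. For each library they deposited total and unique exon read counts per gene, RPKM values and TPM values (not used here). How strand was used in counting was not found in the sources, and reads of near-identical genes could be split between them. No column of per-sample values was left unmapped.

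Counts of all 9 libraries entered 1 quasi-likelihood fit (edgeR 4.0.16 under R 4.3.3), scaled by TMM and limited to 20272 genes by filterByExpr, with Benjamini-Hochberg adjustment over all tested genes. Each SE was the size of the log2 change divided by the root of its F value. Calls needed an adjusted p under 0.01 and 1.5-fold. Levels are the deposited RPKM with SD. The fit was checked on simulated counts. No molecular identifiers are stated, so floors cover counting error only.

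Aquaporins, lists and tests were chosen with earlier results of these data known. All 35 members are named, with STZ and up to 3 called genes per pathway list and comparison by smallest p, of which 1 is not reported here. From the lists, 4 entries whose names neither the files nor the reference give were left out (1 boron, 1 low oxygen and 2 trafficking genes). Motif windows came from the TAIR10.1 annotation in place of a promoter table. Genes that overlap a member on the other strand, and markers with 0 reads, are also named, the former chosen after their values were seen.

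Replicate numbers were checked as pairs. Deviations of same-numbered libraries correlated at 0.31, 0.49 and 0.20 between 6 h and 24 h, and those of other numbers at -0.35 to 0.09. The same-numbered values were 0.27, -0.03 and -0.09 between mock and 6 h and 0.22, 0.01 and -0.07 between mock and 24 h. Mock replicate 3 correlated with replicate 2 of 6 h (0.30) and of 24 h (0.28), so values of this size also arise between other numbers. Pairing is thus not established, the main fit is unpaired, and the replicate block was run as an alternative.

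The alternatives were other scalings (DESeq2 size factors, upper quartile, total counts, library sizes without STZ, organellar and ribosomal genes), other filters, unique reads, DESeq2 1.42.0, limma-voom and limma 3.58.1 on log2(RPKM + 1) or log2(RPKM + 0.1), a replicate block, fits of 2 groups, glmTreat, a looser call (adjusted p under 0.05, any fold), and each library left out. The fit of 24 h and 6 h alone with the block, and scaling without aquaporin genes, were added after seeing the data.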

Additional observations from a re-analysis of the deposited data

Results flagged for a closer look

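For 6 members the change against mock differed between 24 h and 6 h, by the edgeR test of 24 h against 6 h itself (adjusted p under 0.01, at least 1.5-fold). The difference was -2.07 ± 0.25 on the log2 scale for PIP2;5, -0.70 ± 0.13 for TIP2;1, 0.82 ± 0.20 for TIP2;2, -1.90 ± 0.22 for NIP2;1, -0.69 ± 0.10 for NIP5;1 and -1.12 ± 0.17 for SIP1;2. In all 3 libraries of each group PIP2;5, NIP2;1, NIP5;1, TIP2;1 and SIP1;2 were lower at 24 h than at 6 h. That held for 30.8% of all tested genes, and these members were picked by calls on the same values. TIP2;2, the 1 rise, was higher at 24 h than at 6 h within each of the 3 replicate numbers, and its adjusted p was 0.00372 without and 0.000121 with the replicate block. Across numbers it had 24 h replicate 1 at 309.7 RPKM, below 6 h replicate 2 at 313 RPKM. PIP1;1 (-0.62 ± 0.20) is not among the 6, since it was called between the times with the block (adjusted p = 0.00083) but not without it (0.0196).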

How the results depend on the processing

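Of the 11 calls at 6 h, 19 at 24 h and 6 between the times, 8, 15 and 4 held under each alternative in which the member was tested, and no called member changed sign. A filter at a mean of 5 CPM left PIP2;5, PIP2;6, PIP2;8, NIP2;1, NIP4;2, NIP6;1 and SIP1;2 untested. With each library left out in turn, the members lower at 6 h numbered 6 to 11 and those higher 3, those lower at 24 h 13 to 18 and higher 2, and those lower at 24 h than at 6 h 4 to 6 and higher 0 to 1, the last being TIP2;2. That rise was also absent with glmTreat (0 higher) and with limma on log2(RPKM + 1) (0). TIP2;2 was not called higher between the times with limma on log2(RPKM + 0.1) either. That filter gave 1 higher at 6 h and 2 lower between the times, since these genes dropped out, and no filter gave 2 higher between the times. Calling at an adjusted p under 0.05 and any fold gave 15 lower at 6 h, 4 higher at 24 h, and 11 lower and 3 higher between the times. With it all genes called rose from 1100 to 3623 higher and from 1562 to 4011 lower at 6 h, from 3566 to 6709 and from 3641 to 6538 at 24 h, and from 2853 to 6020 and from 2126 to 5541 between the times. The mean CPM filter gave 1033 lower at 6 h and limma on log2(RPKM + 1) 698 higher, over fewer genes or with small values shrunk.

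With the replicate block, 9 members were lower and 3 higher at 6 h, 18 lower and 2 higher at 24 h, and 6 lower and 1 higher between the times. The block added PIP1;1 at 6 h and between the times and PIP2;5 at 24 h, and changed no other call of a member. PIP1;1 was also called between the times in the fit of those groups alone with the block.

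RPKM recomputed from counts with TMM-scaled totals gave a NIP sum of 114% and a SIP sum of 102% of mock at 6 h, and a SIP sum of 129% at 24 h. With each library left out, the sums as a percent of mock were 54.97 to 63.8 (PIP1), 52.9 to 61.9 (PIP2), 60.7 to 69.2 (TIP), 110.7 to 115 (NIP) and 99.6 to 102 (SIP) at 6 h. At 24 h they were 43.2 to 49.3 (PIP1), 45.2 to 52.8 (PIP2), 60.9 to 75.1 (TIP), 92.9 to 103.9 (NIP) and 119.2 to 124.4 (SIP).

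At about 0.8 RPKM, PIP2;5 and NIP2;1 had few reads, which limits their values. For 6 members a change could not be tested at this depth. The groups hold 3 libraries each, and mock was sampled at 24 h only.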
